A study of Arabidopsis thaliana with 6 samples.

Results

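The 9 genes described here, *ERF1A*, *ERF2*, *ERF5*, *ERF6*, *ERF104*, *ERF105*, *ERF106*, *ERF107* and *ERF109*, encode ETHYLENE RESPONSE FACTOR transcription factors of *Arabidopsis thaliana* that are known as stress-inducible. They were chosen by name, with the difference between these same libraries already known, out of 30865 genes in the count table. All 9 were among the 21158 genes tested. Because the choice used this contrast, the differences of the 9 genes between the groups are given as descriptions, and the calls of the fit over all genes are counted for them but support nothing. RNA-seq libraries of untreated, 9-day-old whole seedlings grown on 1/2 MS medium with 1% sucrose were compared, 3 of wild type (Col-0) and 3 of the nup50c mutant. Total RNA came from about 50 mg of tissue and was made into strand-specific libraries read as 150-nt pairs. No allele, type of mutation or number of lines is named for nup50c. The numbers in its sample titles were read as replicates, although such numbers can also name alleles. Nothing states that replicates were grown separately, so the p-values rest on a spread between samples that may be technical.

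ERF proteins bind DNA through an AP2/ERF domain, and those of group IX classically recognise the GCC box, an element found in promoters of defence genes. Ethylene, jasmonate, wounding, cold and microbial signals induce many of their genes within minutes, and protein kinases of the MPK3 and MPK6 type phosphorylate several of the proteins. NUP50 proteins sit at the basket on the inner side of the nuclear pore, and in animals they assist import of proteins into the nucleus.

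The annotation (TAIR10.1, RefSeq) placed all 9 genes in ERF subfamily B-3, the older name of group IX, with 18 genes so annotated. In the widely used later classification *ERF109* belongs to group X, and that classification is followed here, with the other 8 called group IX genes. Over 58 residues of the AP2/ERF domain, the ERF109 protein shared on average 72.4% with 17 group IX proteins and 77.8% with 7 group X proteins. The same measure barely separated the groups for ERF1A (77.5% with group IX and 77.1% with group X), ERF2 (77.0% and 76.7%) and ERF5 (77.5% and 76.1%). Within group IX the domain was nearly shared by the pairs ERF1A and ERF2 (98.3%) and ERF106 and ERF107 (96.6%). ERF5 shared 87.9% with ERF6 and 86.2% with ERF105, and ERF104 shared 84.5% with ERF105. Over the whole aligned proteins ERF1A and ERF2 shared 70.7%, ERF106 and ERF107 73.2%, ERF5 and ERF6 64.9%, and ERF104 and ERF105 53.6%. The start of the domain's coding DNA is shown for all 9 genes because it is the stretch they have in common. Each line below gives the first 60 bases on the coding strand, with the 33 positions that are the same in all 9 genes in capitals.
ERF1A: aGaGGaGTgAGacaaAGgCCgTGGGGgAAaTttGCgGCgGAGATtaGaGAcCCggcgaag
ERF2: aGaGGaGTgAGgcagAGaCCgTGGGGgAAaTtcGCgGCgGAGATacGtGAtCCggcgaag
ERF5: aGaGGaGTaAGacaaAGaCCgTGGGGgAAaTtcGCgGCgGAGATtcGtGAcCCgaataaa
ERF6: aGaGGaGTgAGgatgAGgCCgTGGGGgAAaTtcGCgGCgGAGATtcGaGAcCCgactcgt
ERF104: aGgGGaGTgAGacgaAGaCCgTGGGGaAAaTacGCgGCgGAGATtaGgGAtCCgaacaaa
ERF105: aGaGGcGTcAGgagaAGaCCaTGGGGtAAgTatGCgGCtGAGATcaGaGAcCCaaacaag
ERF106: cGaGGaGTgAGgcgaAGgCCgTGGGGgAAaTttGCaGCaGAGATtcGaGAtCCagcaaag
ERF107: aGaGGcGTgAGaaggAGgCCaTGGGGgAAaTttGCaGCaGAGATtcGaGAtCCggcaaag
ERF109: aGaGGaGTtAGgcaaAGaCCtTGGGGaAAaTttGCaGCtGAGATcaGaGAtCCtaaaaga
These stretches lie at chr4:9759849-9759908 (ERF1A, plus strand), chr5:19172344-19172403 (ERF2, minus strand), chr5:19180540-19180599 (ERF5, plus strand), chr4:9753351-9753410 (ERF6, minus strand), chr5:24767045-24767104 (ERF104, minus strand), chr5:20801098-20801157 (ERF105, minus strand), chr5:2400056-2400115 (ERF106, plus strand), chr5:24764878-24764937 (ERF107, minus strand) and chr4:16452400-16452459 (ERF109, plus strand) of TAIR10.1. *ERF2* matched *ERF1A* at 52 of the 60 bases and *ERF105* at 44.

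Library totals ran from 33273007 to 39574236 counts. *NUP50C* (AT4G11790), counted first as the check of the labels, had 1255, 1100 and 1142 counts in the wild-type libraries against 469, 376 and 336 counts in the mutant ones. Its log2 fold change was -1.49 (SE 0.15, n = 3 per group, adjusted p = 0.00293, quasi-likelihood test of edgeR, adjusted by Benjamini-Hochberg). The labelled genotypes were thus matched by the transcript, which was still counted in nup50c. On the first principal component (30.6% of the variance) wild type lay at -58.8 to -21.4 and nup50c at 26.4 to 56.8. One library stood apart on the second (23.8%): nup50c replicate 3 lay at -83.6, and the other 5 libraries lay between -4.89 and 31.5. The differences of the 9 ERF genes are therefore also given without it, and those of related genes where leaving it out turned the direction or moved the log2 fold change by over 1.5 times. Both organs of a whole seedling were represented. The 8 root markers summed to 125.8 to 148.6 CPM in wild type and 136.5 to 150.6 in nup50c, and the 6 shoot markers to 31800 to 32320 and 28460 to 30620. The shoot sums did not overlap, and their part in the differences below was not tested. A sum follows its most abundant genes, and *LHCB1.3* had means of 12690 CPM in wild type and 10760 CPM in nup50c. *TPT* lay the other way with groups apart, at 945.7 and 996.2 CPM. Of the 6 shoot markers 5 had a log2 fold change below 0 and 1 above, and edgeR called 0. In such bulk RNA, fewer cells of a type and less RNA per cell cannot be told apart.

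Of the 9 genes, 7 were higher in nup50c than in wild type and 2, *ERF106* and *ERF107*, stayed within 0.11 log2 units of it. The largest differences belonged to *ERF109* and *ERF105*, and the smallest of the 7 to *ERF1A* and *ERF2*, whose groups overlapped. Levels are given as counts scaled to the TMM library size (CPM), which can be compared between libraries for 1 gene but not between genes of different length.

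**Figure D1:**
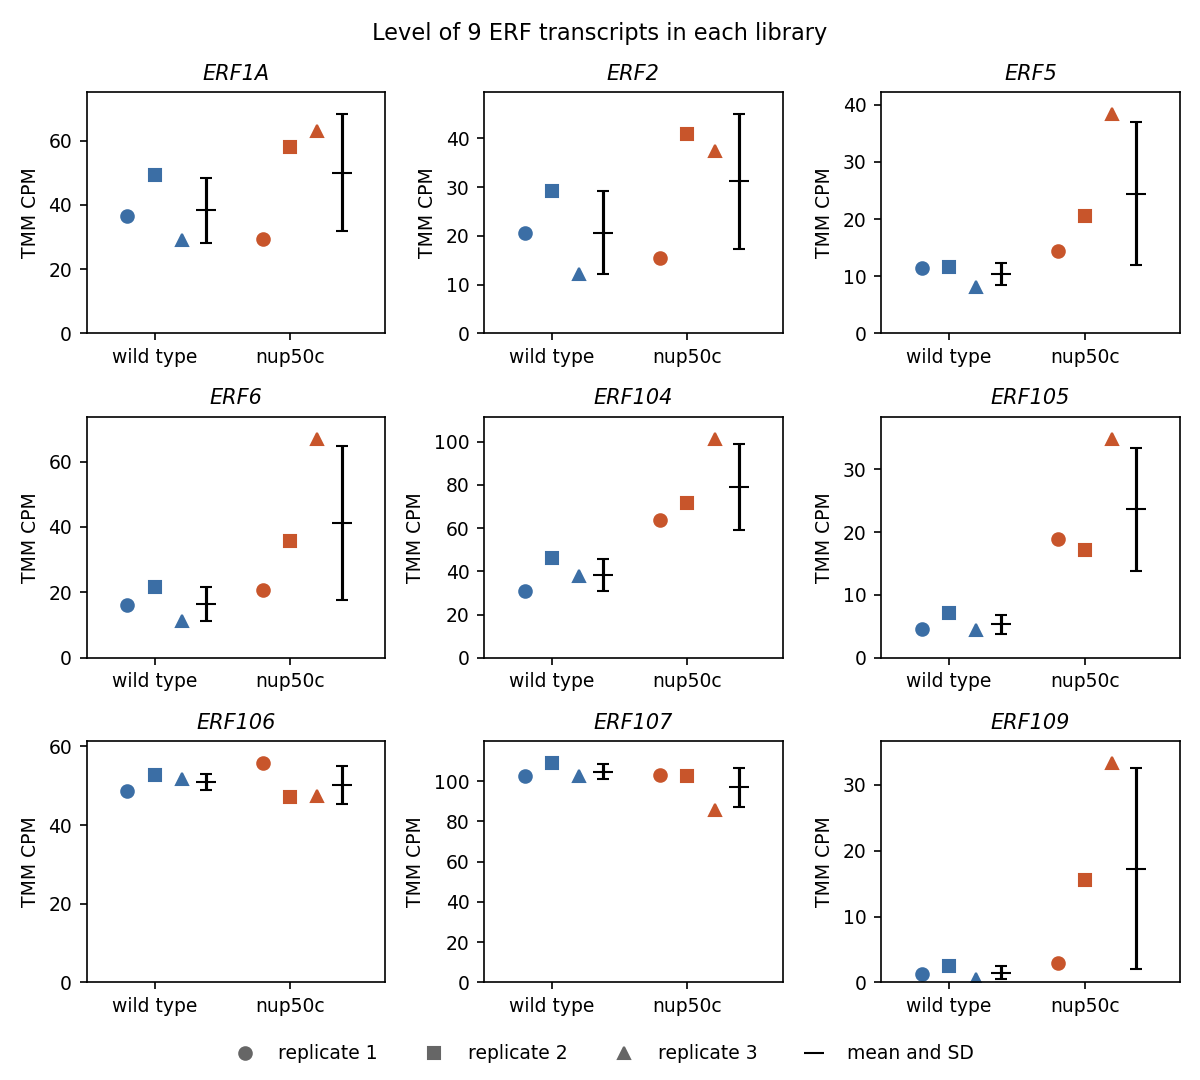
Level of each of the 9 ERF transcripts in TMM-normalised CPM (vertical axis, from 0) in the 3 wild-type libraries (blue) and the 3 nup50c libraries (orange), with the group mean and SD as black marks. The groups of *ERF5*, *ERF104*, *ERF105* and *ERF109* do not overlap, and the triangle of nup50c replicate 3 is the highest point in 6 of the 9 panels.

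*ERF1A* (AT4G17500, chr4:9759203-9760391, plus strand) and *ERF2* (AT5G47220, chr5:19171643-19172956, minus strand) belong to subgroup IXa and encode transcriptional activators that bind the GCC box. *ERF1A* stood at 36.6, 49.2 and 29.2 CPM in wild-type replicates 1, 2 and 3 and at 29.2, 57.96 and 63.03 CPM in the same order of nup50c. Replicate 1 of nup50c was level with the lowest wild-type library, so the groups overlapped. Their means were 38.3 ± 10.1 and 50.1 ± 18.2 CPM (SD, n = 3), and the log2 fold change of nup50c over wild type was 0.39 (SE 0.36), or 0.19 without nup50c replicate 3. *ERF2*, whose product also activates jasmonate-responsive defence genes, stood at 20.5, 29.2 and 12.2 CPM in wild type and 15.4, 40.9 and 37.3 CPM in nup50c. Again replicates 2 and 3 of nup50c lay above all of wild type and replicate 1 lay among it. The means were 20.6 ± 8.51 and 31.2 ± 13.8 CPM, with a log2 fold change of 0.60 (SE 0.50) and 0.45 without nup50c replicate 3. For both genes the standard error was nearly as large as the difference.

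*ERF5* (AT5G47230, chr5:19179881-19181182, plus strand) and *ERF6* (AT4G17490, chr4:9752824-9754161, minus strand) belong to subgroup IXb and encode a closely related pair that slows leaf growth under osmotic stress and takes part in the response to chitin. *ERF5* was measured at 11.5, 11.6 and 8.10 CPM in wild type and at 14.4, 20.5 and 38.4 CPM in nup50c. All nup50c libraries were above all wild-type libraries, and replicate 3 lay well above the other nup50c libraries. The group means were 10.4 ± 1.99 and 24.4 ± 12.5 CPM, a log2 fold change of 1.23 (SE 0.39) that became 0.75 without nup50c replicate 3. *ERF6*, which MPK3 and MPK6 phosphorylate, was measured at 16.2, 21.6 and 11.4 CPM in wild type and 20.8, 35.9 and 67.0 CPM in nup50c. The groups touched, because wild-type replicate 2 was just above nup50c replicate 1. Its means were 16.4 ± 5.12 and 41.2 ± 23.6 CPM, and its log2 fold change of 1.33 (SE 0.51) became 0.79 without nup50c replicate 3.

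*ERF104* (AT5G61600, chr5:24766344-24767732, minus strand) encodes a substrate of MPK6 that acts in the immune response to bacterial flagellin. Its level was 31.0, 46.0 and 37.7 CPM in wild type and 63.7, 71.5 and 102 CPM in nup50c. The groups lay clearly apart, with the lowest nup50c library above the highest wild-type library. Means of 38.2 ± 7.50 and 78.9 ± 19.9 CPM gave a log2 fold change of 1.04 (SE 0.22), and 0.82 without nup50c replicate 3. *ERF104* thus had a smaller difference than *ERF5* or *ERF6* but also a smaller standard error.

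*ERF105* (AT5G51190, chr5:20800473-20801437, minus strand) encodes a factor known for its role in cold and freezing responses. Wild type held 4.61, 7.12 and 4.39 CPM of it, and nup50c held 18.9, 17.1 and 34.9 CPM. Every nup50c library was far above wild type, and replicates 1 and 2 lay close together. The means were 5.37 ± 1.52 and 23.6 ± 9.78 CPM, the log2 fold change 2.14 (SE 0.34), and the value without nup50c replicate 3 was 1.74. *ERF105* was the 1 gene of the 9 called by edgeR at an adjusted p under 0.05, where 2.28% of all genes tested were called. The call was not made without wild-type replicate 1, 2 or 3 or without nup50c replicate 1. Since the contrast served to choose the 9 genes, nothing is read from that count.

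*ERF106* (AT5G07580, chr5:2399726-2400349, plus strand) and *ERF107* (AT5G61590, chr5:24764256-24765511, minus strand), also of subgroup IXb, encode the factors DEWAX2 and DEWAX, which repress genes of cuticular wax synthesis. *ERF106* stood at 48.7, 52.6 and 51.6 CPM in wild type and 55.8, 47.2 and 47.4 CPM in nup50c. The nup50c libraries lay on both sides of wild type. Its means of 51.0 ± 2.04 and 50.1 ± 4.87 CPM gave a log2 fold change of -0.02 (SE 0.09), and of 0.01 without nup50c replicate 3. *ERF107* stood at 103, 109 and 103 CPM in wild type and 103, 102 and 85.7 CPM in nup50c. Only nup50c replicate 3 lay apart, below the rest. Means of 104.7 ± 3.68 and 97.0 ± 9.79 CPM gave a log2 fold change of -0.11 (SE 0.08), or -0.03 without nup50c replicate 3.

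*ERF109* (AT4G34410, chr4:16451876-16453260, plus strand), also called RRTF1, encodes a redox-responsive factor that is induced by wounding and jasmonate and activates auxin synthesis genes in roots. Its counts were 46, 93 and 22 in wild type against 103, 585 and 1085 in nup50c, which corresponded to 1.31, 2.57 and 0.559 CPM and to 2.99, 15.6 and 33.3 CPM. All nup50c libraries exceeded all wild-type libraries, but nup50c replicate 1 exceeded wild-type replicate 2 only narrowly, and nup50c replicate 3 was 11.1-fold above nup50c replicate 1. Group means were 1.48 ± 1.02 and 17.3 ± 15.2 CPM. The fitted difference was 11.7-fold (log2 fold change 3.55, SE 1.11), and the ratio of means fell to 6.28-fold without nup50c replicate 3 (log2 fold change 2.66).

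Side by side, the libraries followed a shared order in most of the 9 genes. Wild-type replicate 2 was the highest wild-type library for all 9, and wild-type replicate 3 the lowest wild-type library for 6. Among all 6 libraries, nup50c replicate 3 was the highest for 6 genes. The groups lay apart, with nup50c higher, for 4 genes, where this held for 11.7% of all genes tested, and nothing is read from that count either. The median log2 fold change of the 9 genes was 1.04, beside -0.00284 over all genes tested, and 49.5% of all genes tested lay above 0.

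**Figure D2:**
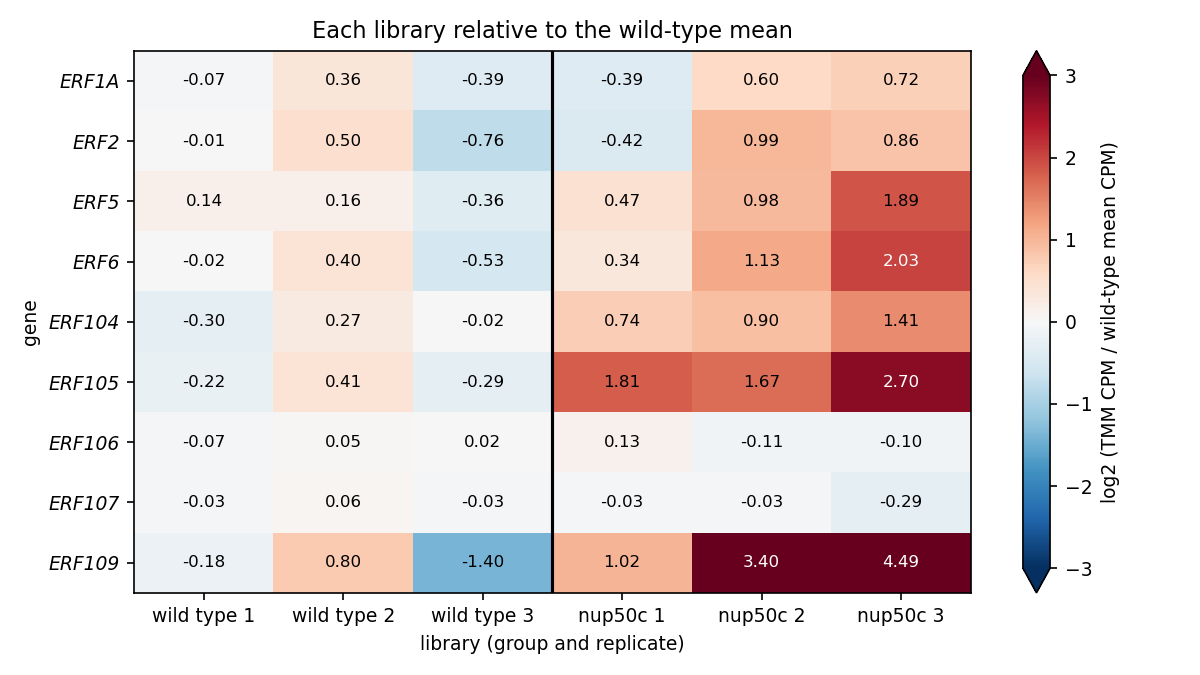
Log2 of each library's TMM-normalised CPM over the wild-type mean of the gene, for the 9 ERF genes (rows) and 6 libraries (columns), with the value printed in each cell and colours capped at 3. *ERF109* reaches 4.49 in nup50c replicate 3, whereas *ERF106* and *ERF107* stay between -0.29 and 0.13 in all libraries.

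Spread between replicates was wide for most of these genes. The pooled within-group SD of log2 CPM, which does not use the difference between the groups, was 1.45 for *ERF109*, at the 95.0 percentile of all genes tested. It was 0.71 for *ERF2*, 0.68 for *ERF6*, 0.55 for *ERF5*, 0.51 for *ERF1A* and 0.48 for *ERF105*, at percentiles from 86.3 to 92.4. *ERF104* had an SD of 0.32 at the 75.2 percentile, and *ERF106* and *ERF107* had SDs of 0.10 and 0.11 at the 24.3 and 27.5 percentiles. The median over the 9 genes was 0.506, against 0.173 over all genes tested. Their median percentile was 87.5, and 77.2 without nup50c replicate 3. Within wild type alone, the highest library exceeded the lowest by 1.06-fold for *ERF107* and by 4.597-fold for *ERF109*.

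**Figure D3:**
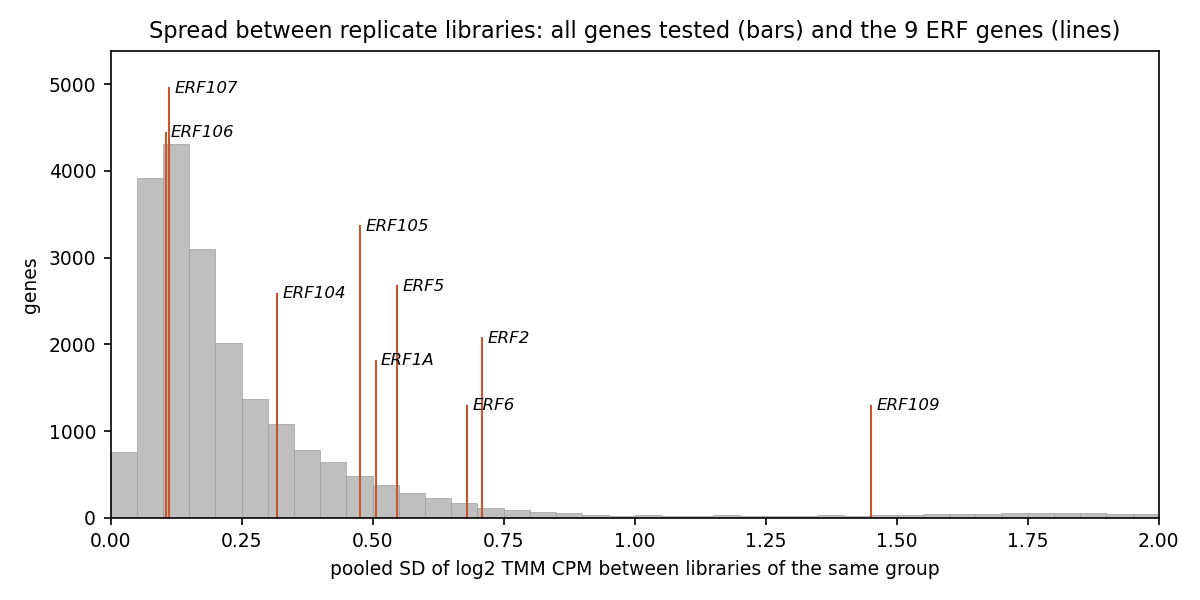
Number of genes tested (grey bars, vertical axis) by the pooled SD of log2 TMM-normalised CPM between libraries of the same group (horizontal axis, drawn up to 2), with orange lines at the values of the 9 ERF genes, whose heights carry no meaning. *ERF106* and *ERF107* fall in the bulk of all genes, and the other 7 lie to its right, with *ERF109* at 1.45.

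Levels between genes were compared on the deposited FPKM, which are per length of transcript. In wild type the order ran from *ERF107* (75.5 ± 3.06 FPKM, SD, n = 3) and *ERF106* (74.0 ± 3.004) through *ERF1A* (29.2 ± 7.89), *ERF104* (24.9 ± 4.98), *ERF2* (14.2 ± 5.95), *ERF6* (11.1 ± 3.53) and *ERF5* (7.22 ± 1.42) to *ERF105* (5.03 ± 1.46) and *ERF109* (0.960 ± 0.676). The wax repressors were thus the most abundant and *ERF109* the scarcest. Neighbours in this order had overlapping library ranges except at 3 steps, from *ERF106* to *ERF1A*, from *ERF104* to *ERF2* and from *ERF105* to *ERF109*. In nup50c the order was *ERF106* (73.6 ± 7.41 FPKM), *ERF107* (70.8 ± 8.03), *ERF104* (51.9 ± 12.4), *ERF1A* (38.5 ± 13.9), *ERF6* (28.1 ± 15.7), *ERF105* (22.3 ± 8.91), *ERF2* (21.7 ± 9.65), *ERF5* (17.1 ± 8.51) and *ERF109* (11.4 ± 9.88). Every neighbouring pair overlapped there. The annotated *ERF106* model holds 624 bases of coding sequence and no untranslated region, so its level per length may not be comparable with the others.

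All 9 genes have a single exon, and 6 of them lie next to another of the 9. *ERF6* and *ERF1A* point away from each other on chromosome 4, 5041 bases apart with 0 annotated genes between. *ERF2* and *ERF5* are arranged in the same divergent way on chromosome 5, 6924 bases apart with 2 small genes between, so both divergent pairs join a IXa gene to a IXb gene. *ERF107* and *ERF104* lie on the minus strand of chromosome 5 only 832 bases apart. Side by side, the log2 fold change of these neighbours was 1.33 for *ERF6* and 0.39 for *ERF1A*, 1.23 for *ERF5* and 0.60 for *ERF2*, and 1.04 for *ERF104* and -0.11 for *ERF107*. Differences within these pairs were not tested.

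**Figure D4:**
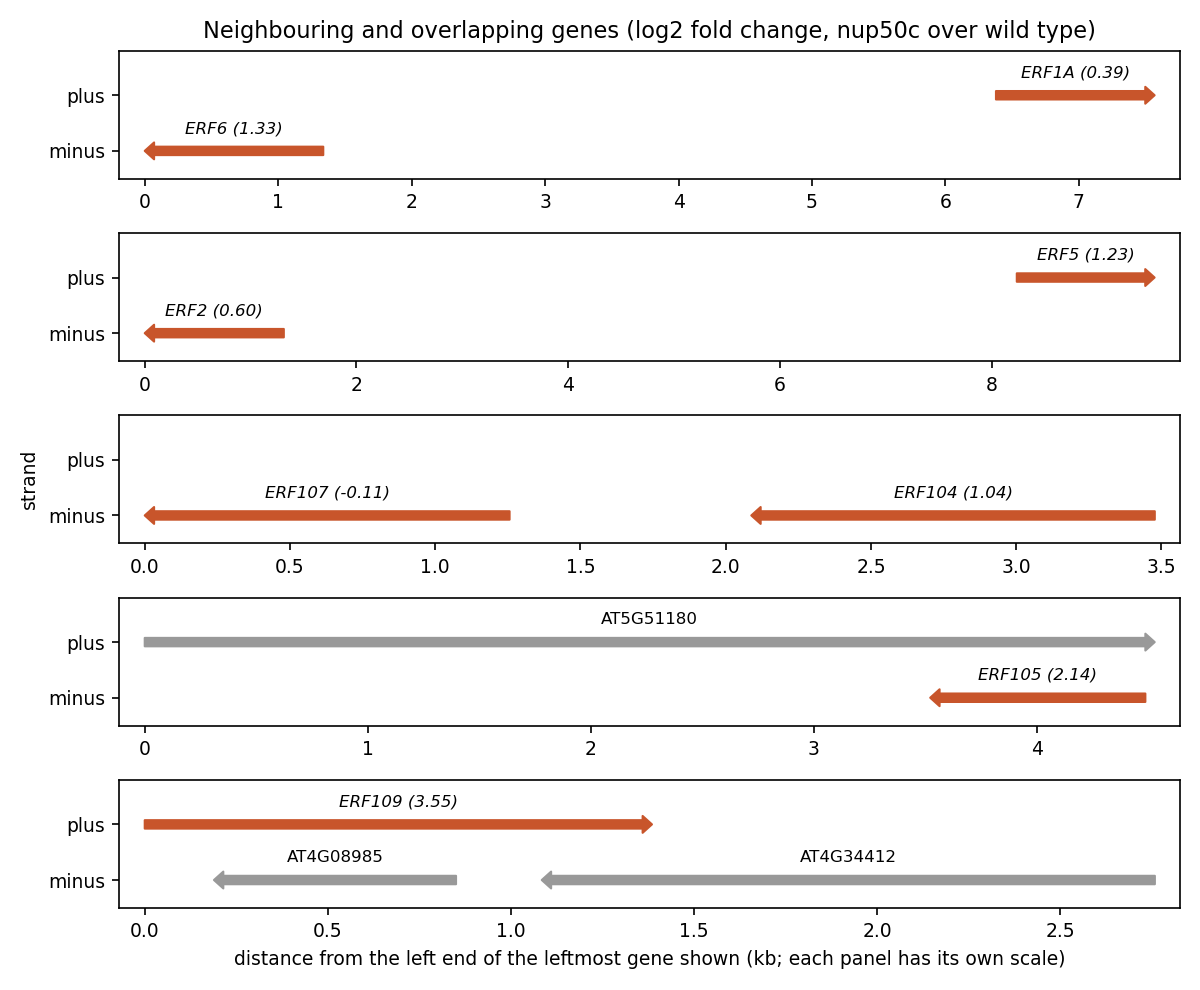
Annotated positions of neighbouring ERF genes (orange, with the log2 fold change of nup50c over wild type in brackets) and of genes that overlap *ERF105* and *ERF109* (grey), by strand, with distance in kb from the left end of each panel and a scale of its own per panel. The 2 genes between *ERF2* and *ERF5* are not drawn, *ERF105* lies wholly inside AT5G51180, and *ERF107* and *ERF104* are 832 bases apart.

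The genes with the largest differences, *ERF105* and *ERF109*, overlap other annotated genes on the opposite strand. *ERF105* lies 100% within AT5G51180, a longer gene with 1379, 1454 and 1327 counts in wild type against 1728, 1772 and 2914 in nup50c (log2 fold change 0.72, adjusted p = 0.266 by edgeR, and 0.37 without nup50c replicate 3). Of *ERF109*, 47.7% is overlapped by the long non-coding RNA AT4G08985, listed at 0, 53 and 0 counts in wild type against 23, 236 and 494 in nup50c, and 21.7% by AT4G34412, at 263, 371 and 393 and at 327, 305 and 211 counts. Counts of AT4G08985 were thus highest in the same nup50c libraries as those of *ERF109*, whereas those of AT4G34412 were lowest in nup50c replicate 3. A further 5.9% of *ERF106* is shared with AT5G07590. The libraries keep strand, but it is not given in the sources used whether counting relied on it, so reads from each gene and its opposite partner cannot be told apart.

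Promoters were read from TAIR10.1 as the 250 bases before each annotated gene start and searched on both strands for 5 elements. The G box (CACGTG, bound by bZIP and bHLH factors) occurred in 3 of the 9, those of *ERF1A*, *ERF2* and *ERF109*, and in 6.5% of 27443 gene promoters. The W box core (TTGAC, bound by WRKY factors) occurred in 5 of the 9, those of *ERF1A*, *ERF2*, *ERF5*, *ERF105* and *ERF109*, and in 44.9% of all. The windows of *ERF5* and *ERF105* overlap another gene, and that of *ERF106* ends at its coding sequence. The GCC box (GCCGCC), the rapid stress response element of CAMTA factors (CGCGTT) and the dehydration-responsive element (GCCGAC) occurred in 0 of the 9 windows and in 1.9%, 2.6% and 2.6% of all. The promoters with a G box are shown with the G box and W box letters in capitals, and that of *ERF104* beside them as a window with 0 of the 5 elements from a gene whose groups lay apart.
ERF1A: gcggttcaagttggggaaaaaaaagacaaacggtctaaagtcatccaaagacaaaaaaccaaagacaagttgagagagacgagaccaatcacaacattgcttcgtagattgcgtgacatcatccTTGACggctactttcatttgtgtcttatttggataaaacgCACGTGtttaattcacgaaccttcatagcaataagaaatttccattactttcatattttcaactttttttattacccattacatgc
ERF2: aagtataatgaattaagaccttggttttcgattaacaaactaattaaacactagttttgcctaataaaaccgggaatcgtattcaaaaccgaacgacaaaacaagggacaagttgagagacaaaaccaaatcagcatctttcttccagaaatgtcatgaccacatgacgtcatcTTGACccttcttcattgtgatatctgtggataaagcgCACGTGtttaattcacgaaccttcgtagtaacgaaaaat
ERF109: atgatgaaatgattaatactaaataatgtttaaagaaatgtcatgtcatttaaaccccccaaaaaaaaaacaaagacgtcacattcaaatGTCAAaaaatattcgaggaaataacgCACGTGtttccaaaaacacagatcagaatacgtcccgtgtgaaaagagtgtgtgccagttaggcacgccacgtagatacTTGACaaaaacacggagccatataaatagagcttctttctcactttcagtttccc
ERF104: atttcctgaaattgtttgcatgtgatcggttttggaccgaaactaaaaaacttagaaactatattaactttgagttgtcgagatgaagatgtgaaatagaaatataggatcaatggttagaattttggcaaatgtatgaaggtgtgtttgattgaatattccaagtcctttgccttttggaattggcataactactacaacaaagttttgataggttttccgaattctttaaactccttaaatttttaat
They span chr4:9758953-9759202 (*ERF1A*, plus strand), chr5:19172957-19173206 (*ERF2*, minus strand), chr4:16451626-16451875 (*ERF109*, plus strand) and chr5:24767733-24767982 (*ERF104*, minus strand). The G box began 86 bases before the start of *ERF1A*, 39 before that of *ERF2* and 134 before that of *ERF109*. In all 3 a W box core preceded it, at 126, 76 and 160 bases, and *ERF109* held another at 55 bases. These matches are letters in the genome, and the genes that hold them had log2 fold changes of 0.39, 0.60 and 3.55.

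Related genes were taken from lists of other ERF groups, the ethylene pathway, upstream kinases, rapid stress genes and known targets, and their tests come from the fit over all genes. Among 101 listed genes 84 were tested, and edgeR called 1 higher and 0 lower, where 1.12% of all genes tested were called higher and 1.17% lower. Of the 84, 24 had an unadjusted p under 0.05, as did 3521 of all 21158 genes tested. DESeq2 called 10 of the related genes higher and 4 lower, against 662 and 616 over all genes. As the lists were chosen with these data known, nothing is read from these counts. Of the related genes described next, only *CBF1* passed edgeR's threshold.

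Of 9 other group IX genes 4 were tested; 4 were listed at 0 in all libraries, which may be failed estimates, and 1 was not analysed here. By edgeR 0 were called, with 2 at an unadjusted p under 0.05, and DESeq2 called 1 (*ERF13*). *ERF13* had 1.68, 2.73 and 2.16 CPM in wild type and 2.67, 5.86 and 17.2 CPM in nup50c, a log2 fold change of 1.97 (SE 0.71, adjusted p = 0.252), or 0.96 without nup50c replicate 3. Like *ERF6*, it was highest in nup50c replicate 3 and its groups touched. *ERF15* (log2 fold change -0.48, SE 0.19, adjusted p = 0.236) had all nup50c libraries below wild type. *ORA59*, an integrator of ethylene and jasmonate signals, had a log2 fold change of -0.20 (SE 0.16, adjusted p = 0.618). Of 7 other group X genes 3 were tested, with 0 called by edgeR or DESeq2 and 1 at an unadjusted p under 0.05. That was *RAP2.6L*, known from tissue reunion after wounding, at 6.51 ± 0.893 CPM in wild type and 3.16 ± 1.38 CPM in nup50c (log2 fold change -1.05, SE 0.33, adjusted p = 0.152). *ERF112* and *RAP2.6* had log2 fold changes of 0.69 (SE 0.33, adjusted p = 0.335) and 0.09 (SE 0.27, adjusted p = 0.921), which became 0.42 and -0.12 without nup50c replicate 3.

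Group VIII ERF proteins carry an EAR motif and repress transcription. Of the 8 listed genes, all tested, 6 were above 0 (4 without nup50c replicate 3), edgeR called 0, 3 had an unadjusted p under 0.05 and DESeq2 called 2 higher (*ERF11* and *ERF4*). *ERF11* had a log2 fold change of 1.14 (SE 0.32, adjusted p = 0.11) and *ERF4* of 0.85 (SE 0.27, adjusted p = 0.205), and both had groups that lay apart. *ERF4* was measured at 44.3, 45.9 and 40.5 CPM in wild type and 58.3, 64.8 and 113 CPM in nup50c, highest in replicate 3, without which its log2 fold change was 0.50. *ERF3* was at 0.27 (SE 0.11, adjusted p = 0.234). Among the 5 genes of group VII, the oxygen-sensing ERF factors, edgeR called 0, 1 had an unadjusted p under 0.05, and DESeq2 called *RAP2.3* lower. *RAP2.3* had a log2 fold change of -0.32 (SE 0.10, adjusted p = 0.155), *RAP2.12* of 0.11 and *RAP2.2* of -0.11 (adjusted p = 0.438 and 0.471).

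In the ethylene pathway, 9 of 12 synthesis genes were tested, 4 above and 5 below 0, with a median log2 fold change of -0.30. By edgeR 0 were called, 5 had an unadjusted p under 0.05, and DESeq2 called 1 higher (*ACS6*) and 2 lower. *ACS6*, an ACC synthase that MPK6 stabilises, stood at 32.8, 42.8 and 33.3 CPM in wild type and at 57.7, 51.4 and 96.6 CPM in nup50c. Its groups lay apart, with a log2 fold change of 0.92 (SE 0.27, adjusted p = 0.181), or 0.59 without nup50c replicate 3. *ACO1*, an ACC oxidase that makes ethylene from the product of ACC synthase, lay the other way, at -0.62 (SE 0.20, adjusted p = 0.165). Of 13 signalling genes edgeR called 0, 1 had an unadjusted p under 0.05 and DESeq2 called *EBF1*, with a median of -0.02. *EBF1*, an F-box protein that removes the ethylene factor EIN3, had a log2 fold change of 0.28 (SE 0.07, adjusted p = 0.0893), and its groups lay apart. *EBF2* and *CTR1* were at -0.13 and -0.16 (adjusted p = 0.321 and 0.324). Of 11 upstream kinases and CAMTA factors edgeR and DESeq2 called 0, with 3 at an unadjusted p under 0.05 by edgeR. Their lowest p-values belonged to *MKK2* (-0.37, SE 0.13), *MPK4* (-0.25, SE 0.10) and *CAMTA2* (0.21, SE 0.09), at adjusted p of 0.204, 0.228 and 0.277.

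Other rapid stress genes, a list of zinc finger, WRKY, CBF, RNA decay and touch genes chosen like the ERF genes with these data known, lay nearest to the 9 ERF genes. Of 21 listed 19 were tested, 16 were above 0, and for 11 all nup50c libraries were above all wild-type libraries, where this held for 11.7% of all genes tested. As the list was chosen with these data known, nothing is read from that count. The median log2 fold change was 0.90, and 0.29 without nup50c replicate 3, when 14 were above 0. EdgeR called 1, *CBF1*, a cold-response factor (adjusted p = 0.0154). It was listed at 0 counts in all wild-type libraries and at 45, 57 and 139 counts in nup50c. Since counts of 0 may be failed estimates, the call rests on values that may not be real, and no fold is given for *CBF1*. Its call was not made without wild-type replicate 1 (adjusted p = 0.0694), nup50c replicate 2 (0.0597) or nup50c replicate 3 (0.0534). *ORA47*, a regulator of jasmonate synthesis, had 2.59, 1.33 and 2.13 CPM in wild type and 4.88, 18.4 and 21.4 CPM in nup50c. Its groups lay apart, with a log2 fold change of 2.88 (SE 0.62, adjusted p = 0.0926). *CAF1A*, a deadenylase subunit, had a log2 fold change of 1.51 (SE 0.33, adjusted p = 0.0983), with 14.1 ± 1.22 CPM in wild type and 40.01 ± 18.9 CPM in nup50c. DESeq2 called 5 of the 19, *CBF1*, *ORA47*, *CAF1A*, *DREB2A* and *MYB44*. Without nup50c replicate 3 the log2 fold change of *DREB2A* went from 1.11 to 0.74 and that of *MYB44* from 0.41 to 0.24.

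The last lists hold known targets. All 5 tested defence genes with a GCC box in their promoter were below 0, with a median log2 fold change of -0.73. Without wild-type replicate 3 only 3 of the 5 were below 0 and the median was -0.31. By edgeR 0 were called, 2 had an unadjusted p under 0.05, and DESeq2 called *PR4* lower. *PR4* stood at 196.7, 246.8 and 184.1 CPM in wild type and at 127.8, 112.9 and 162.6 CPM in nup50c, with groups apart (log2 fold change -0.64, SE 0.17, adjusted p = 0.124). *CHIB*, a basic chitinase, had -0.29 (SE 0.11, adjusted p = 0.236) and the defensin gene *PDF1.2B* -1.03 (SE 0.74, adjusted p = 0.565). *PDF1.2B* stood at 0.881, 1.49 and 6.55 CPM in wild type and at 1.13, 1.17 and 2.09 CPM in nup50c. Its sign rested on wild-type replicate 3, without which its log2 fold change was 0.30, and *PDF1.2C* likewise went from -0.81 to 0.15. Of 9 growth, auxin and wax targets 7 were tested, 4 above and 3 below 0, with a median of 0.05. Both tools called 0, and 0 had an unadjusted p under 0.05. *GA2OX6*, a gibberellin-inactivating enzyme and target of ERF6, was at 0.56 (SE 0.30, adjusted p = 0.399), or 0.15 without nup50c replicate 3. *ASA1*, an auxin synthesis target of ERF109, was at -0.23 (SE 0.15, adjusted p = 0.527), and *ECR*, a wax synthesis gene, at 0.13 (SE 0.07, adjusted p = 0.398).

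**Figure D5:**
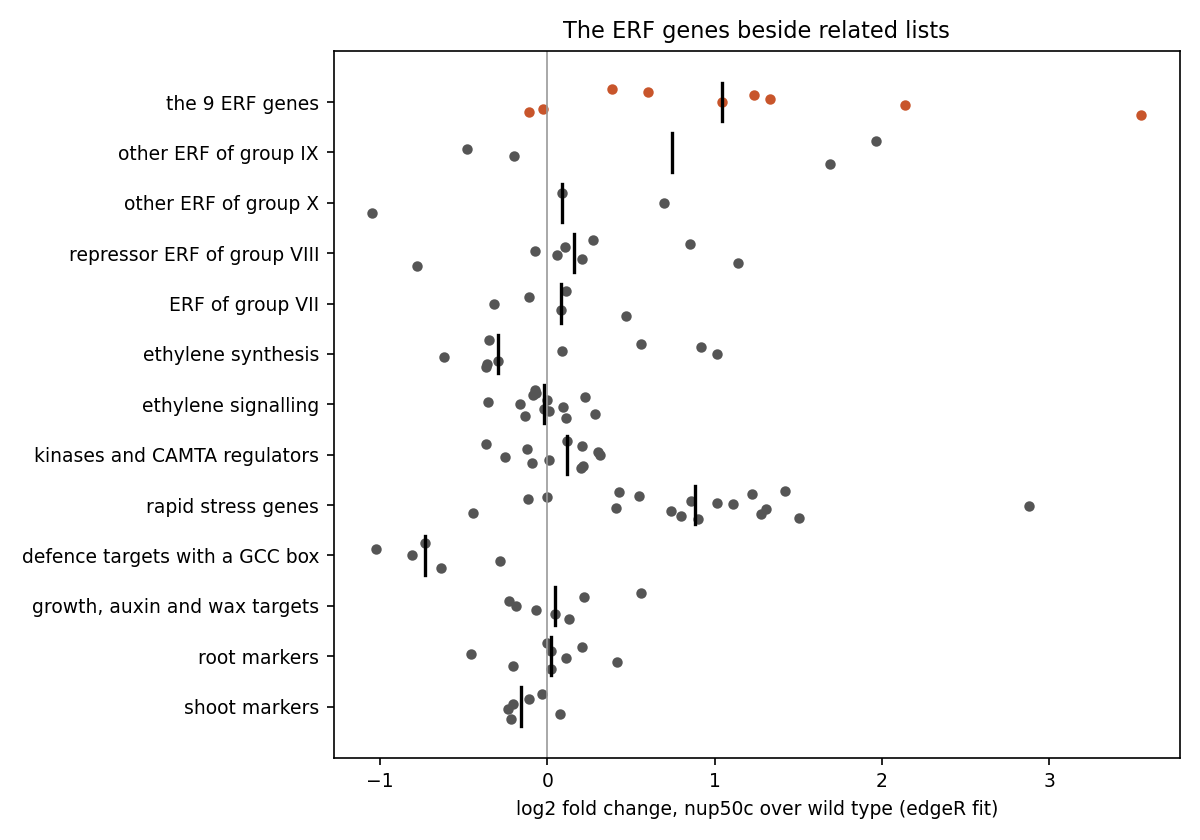
Log2 fold change of nup50c over wild type (horizontal axis) for each tested gene of the 9 ERF genes (orange) and of the related and marker lists (grey), with the median of the genes drawn as a black line. *CBF1* is not drawn because it is listed at 0 in wild type, and the 5 defence genes with a GCC box all lie left of 0.

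The genes most like the ERF pattern were sought over 19397 genes by Pearson correlation across the 6 libraries with the mean standardised level of the 9 genes, as a description. Closest was AT1G56220 (r = 0.999), at 248, 280 and 234 CPM in wild type and 277, 305 and 316 CPM in nup50c, with a log2 fold change of only 0.24. The next were AT3G14120 (r = 0.990), *SCC3* (0.989), AT1G32928 (0.983), *VPS46.1* (0.979), AT5G14285 (0.978), AT1G62970 (0.977), the clock gene *PRR5* (0.975), *IKU1* (0.974) and AT5G57015 (0.974). In all 10, nup50c replicate 3 was the highest library and wild-type replicate 3 the lowest. The 6 libraries are the only points behind these correlations, so nothing is read from them about common function or control.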

How the data were processed

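The authors deposited whole-number counts per gene and FPKM for 6 libraries. Per the submitters' processing notes, HISAT2 2.0.4, HTSeq 0.6.1p1 and TAIR10 were used, with no role or order. Whether counting used strand, and which total stands behind the FPKM, is not given in the sources used. Of 185190 counts 57420 are 0 and 40 are 1, so a 0 may be a failed estimate; none of the 9 ERF genes had a 0.

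Groups came from the sample titles. The test on counts was that of edgeR 4.0.16 under R 4.3.3 (filterByExpr with at least 10 counts and 15 in total, TMM scaling, robust quasi-likelihood F test, no covariate), over 21158 genes, at a Benjamini-Hochberg adjusted p under 0.05. The biological coefficient of variation was 22%, and standard errors were derived from the moderated F. No library was treated as a duplicate, since pairs within a group had a chi-square per gene of 14.5 to 30.0. DESeq2 1.42.0 on the counts and limma 3.58.1 on log2(FPKM + 1) were among 15 alternatives.

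The 9 genes and all lists were chosen with earlier results of these data known. Named were the 9 genes, of each related list the called genes and those with the smallest p up to 3, the 10 genes most like the 9, and NUP50C. Genes named only as DESeq2 calls, and those overlapping the ERF genes, were added after their values were seen. Members were matched by locus, and positions, promoters and coding DNA came from TAIR10.1 (RefSeq), which holds 30645 of the 30865 loci; no coordinate came from the deposited tables. Protein identity was computed with biopython 1.88 from translated coding sequence. One gene that this rule names is not reported here. Figures were drawn with matplotlib 3.10.9.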

Additional observations from a re-analysis of the deposited data

How the results depend on the processing

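Over 15 alternatives, 6 of them leaving out a library, 7 to 8 of the 9 ERF genes had a log2 fold change above 0, and their median ran from 0.749 (without nup50c replicate 3) to 1.201 with a library left out; only the sign of *ERF106* changed, between -0.11 and 0.02. Counts of calls moved with the setting. DESeq2 called 662 genes higher and 616 lower against 236 and 247 by edgeR, at least 10 counts in all libraries gave 394 and 378, and values above 0 in all libraries 398 and 380. Leaving out a library gave 43 to 172 higher and 65 to 266 lower. Of the 9 ERF genes, 1 was called by edgeR and 4 by DESeq2 (*ERF5*, *ERF104*, *ERF105* and *ERF109*); leaving out a library gave 0 to 2, with *ERF105* lost without wild-type replicates 1, 2 or 3 or nup50c replicate 1, and *ERF104* added without nup50c replicate 3. Of the related genes, 1 was called higher by edgeR, 10 by DESeq2, 0 with at least 10 counts or values above 0 in all libraries (*CBF1* is then not tested), 2 by limma on any FPKM above 0, and 0 to 3 with a library left out; 0 were called lower by edgeR, 4 by DESeq2 and 0 to 2 with a library left out. A replicate block gave 12 genes higher and 19 lower, 0 of the 9 and 0 related genes higher. Same-numbered libraries showed no shared deviation (r from -0.123 to -0.0312, against -0.0226 to 0.12 for other numbers). With 3 libraries a group these correlations cannot exclude that the numbers pair the samples. The values of related genes and lists with a library left out were added after the data were seen. With 3 libraries a group, calls near the threshold move with any 1 of them.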

Other observations

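Outside the ERF groups described above, the annotation divides further AP2/ERF genes into subfamilies, which were counted after the values of these data were known. Over all genes tested, 49.5% had a log2 fold change above 0. In subfamily B-6 all 5 tested of 12 genes were below 0, with a median of -0.23, and in B-5 all 6 tested of 6, with a median of -0.27. EdgeR called 0 in both, and 1 gene of each had an unadjusted p under 0.05. In the DREB subfamilies A-4, A-5 and A-6, 7 of 11, 6 of 11 and 4 of 6 tested genes were above 0, with medians of 0.05, 0.09 and 0.29. EdgeR called 0, 0 and 1 of them higher, where 1.12% of all genes tested were called higher. In A-2, 0 of 3 tested genes were above 0, with a median of -1.04, and 0 had an unadjusted p under 0.05 by edgeR. *DREB2A*, at a log2 fold change of 1.11, was not among these 3. Subfamilies were read from the annotation's notes, so a count may leave out genes of a subfamily. A-1 had 1 tested gene, *CBF1*. In B-3, which holds the 9 ERF genes, 9 of 13 tested genes were above 0, and 2 of the 4 that are not among the 9.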
